A study of Mus musculus with 48 samples.

Results

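Interferon response and antigen presentation genes were followed across the mouse left ventricle at 4 ages, with and without ischaemia and reperfusion. The group held 59 listed genes, chosen by name with earlier results of these data known. A gene was taken as measured if 6 or more of the 48 arrays detected a probe for it, at a detection p under 0.05. By that rule 46 of the 59 genes were measured, among 9811 genes in all. The study compared hearts of male C57BL/6 mice aged 8, 16, 32 or 48 weeks, with no transgene or drug named in the labels. Each heart was perfused outside the body through its aorta (Langendorff perfusion). After 20 min of stabilisation it was either kept normoxic or taken through 25 min of global ischaemia and 45 min of reperfusion (I/R). The normoxic hearts were perfused for a matched time, so both treatments share the excision, the anaesthesia and the perfusion. Every combination of age and treatment had 6 hearts, with 1 array each, which makes 8 groups. The mice were bought young, at a single age, and kept until use.

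Interferons are secreted proteins that warn cells of infection or damage. Cytosolic sensors such as Ddx58 (RIG-I) detect foreign nucleic acid and switch on the interferon genes through factors of the Irf family. Interferon bound to its receptor then acts through Stat proteins and Irf9 to switch on antiviral effectors, and interferon-gamma raises the major histocompatibility complex (MHC). MHC class I molecules, on nearly all cells, carry peptides brought in by the Tap transporter. MHC class II molecules, with the invariant chain Cd74, are made mainly by macrophages, dendritic cells and B cells, and in the heart they mark a subset of resident macrophages.

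The members fall into 5 roles. Of 14 receptors, sensors and transcription factors, 11 were measured. Of 27 antiviral effectors and modifiers, 19 were measured, as were 3 of 5 interferon-inducible GTPases, all 8 class I genes and all 5 class II genes. The array carried probes for 8 further members that were not detected on enough arrays: Ifit1, Mx1, Oasl2, Xaf1, Ifih1 and Zbp1, with the GTPase Iigp1 and the receptor chain Ifnar1. None of these 8 was detected on more than 5 of the 48 arrays. No probe is named in the annotation used for the other 5, Isg15, Ifi44, Usp18, Oas1a and Gbp2, so classical interferon-induced genes are thinly covered. Of the 46 measured members, 30 were detected on every array. Of the 46, Stat2, Tap1 and Oas2 passed the filter through the normoxic hearts and were detected on only 1, 1 and 2 of the 24 I/R arrays.

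Interferon-responsive promoters carry known short elements, and several members hold them. The interferon-stimulated response element was searched as GAAANNGAAA on both strands in RefSeq promoter windows (GRCm38.p6), which run from 250 bases before to 50 bases after a gene's start. It was found for 20 of the 46 listed members with a window (43.5%), against 3.99% of 27025 genes. The gamma-activated site, TTCNNNGAA, was found for 15 of those 46 members, against 9.55% of genes. Promoters are shown for the 6 members with the smallest p for a difference between ages in normoxic hearts, taken among those with a response element that the results name, in that order. Each is shown as the 250 bases before its start, 5′ to 3′ on the gene's strand, with the element in capitals, and positions count back from -1 at the last base before the start.
Rsad2 (viperin), chr12:26456453-26456702, minus strand, element from -120: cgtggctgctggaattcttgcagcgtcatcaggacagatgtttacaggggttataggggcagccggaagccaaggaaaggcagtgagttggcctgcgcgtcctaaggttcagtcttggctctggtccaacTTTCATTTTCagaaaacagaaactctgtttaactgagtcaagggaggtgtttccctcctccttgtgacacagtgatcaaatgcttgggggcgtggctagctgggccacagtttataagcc
Bst2 (tetherin), chr8:71537473-71537722, minus strand, overlapping elements from -130 and -124: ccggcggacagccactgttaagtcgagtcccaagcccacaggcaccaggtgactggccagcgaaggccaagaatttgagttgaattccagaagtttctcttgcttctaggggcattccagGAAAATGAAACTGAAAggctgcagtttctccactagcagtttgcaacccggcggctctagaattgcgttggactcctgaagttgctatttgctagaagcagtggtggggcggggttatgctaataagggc
Trim30a, chr7:104465194-104465443, minus strand, element from -36: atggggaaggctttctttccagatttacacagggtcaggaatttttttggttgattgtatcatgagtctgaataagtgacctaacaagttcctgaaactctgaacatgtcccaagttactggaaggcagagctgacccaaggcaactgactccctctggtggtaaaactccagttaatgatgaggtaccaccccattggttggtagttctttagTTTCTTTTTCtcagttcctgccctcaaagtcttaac
B2m (beta-2 microglobulin), chr2:122147437-122147686, plus strand, element from -139: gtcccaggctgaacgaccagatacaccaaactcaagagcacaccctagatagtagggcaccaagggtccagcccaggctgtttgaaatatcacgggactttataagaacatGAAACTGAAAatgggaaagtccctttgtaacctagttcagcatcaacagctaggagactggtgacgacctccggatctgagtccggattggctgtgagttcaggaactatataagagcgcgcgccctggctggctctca
Ifitm2, chr7:140955962-140956211, minus strand, element from -46: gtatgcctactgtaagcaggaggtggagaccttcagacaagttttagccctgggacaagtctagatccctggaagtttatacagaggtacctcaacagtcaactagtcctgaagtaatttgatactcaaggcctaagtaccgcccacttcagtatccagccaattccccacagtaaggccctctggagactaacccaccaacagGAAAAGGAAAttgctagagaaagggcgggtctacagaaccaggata
H2-T23 (Qa-1), chr17:36032702-36032951, minus strand, element from -124: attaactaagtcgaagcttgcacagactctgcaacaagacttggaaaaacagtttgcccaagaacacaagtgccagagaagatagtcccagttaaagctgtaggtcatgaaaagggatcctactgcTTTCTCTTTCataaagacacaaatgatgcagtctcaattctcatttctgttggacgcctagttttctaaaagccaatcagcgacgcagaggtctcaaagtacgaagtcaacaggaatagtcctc
A match describes letters and does not show that a factor binds there. A missing match does not show that a gene lacks an element, since only these letters in these windows were searched. The windows of H2-K1, H2-Aa, H2-Eb1 and Tap1 held no match of either motif.

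Levels are given as log2 intensity after background correction and quantile normalization, and each is the level of 1 probe, so levels of different genes are not compared. Differences are log2 fold changes from a limma fit over all 48 arrays and 9811 genes, and a change was called at a Benjamini-Hochberg adjusted p under 0.05 over all genes. The arrays differed by treatment in ways that bear on every I/R result. RIN, the RNA integrity number, was 8.50 ± 0.30 in normoxic and 7.87 ± 0.30 in I/R samples (SD, n = 24 each). Between 13362 and 15080 probes were detected on normoxic arrays, against 11072 to 13854 on I/R arrays, and 42 to 46 members against 36 to 44. Among 1886 genes with a pair of detected probes that were both called for I/R, the probes pointed the same way in 1069 and opposite ways in 817. Each I/R difference below is thus that of a probe. A second probe was detected for 13 members: 10 were called by both, 9 in the same direction. The second probes of Parp14, Dtx3l and Ddx58 were detected on 0, 2 and 2 of the 24 I/R arrays and give at most a bound there. The size of a difference depended on the processing too. Of 54 differences given for named members, 19 moved by over 1.5 times on the log2 scale without background correction and 28 with the authors' deposited values, and those of the members with the largest differences are given below. All 12 markers of cardiomyocytes, the defining cells of the labelled tissue, were measured. The labels name no slide, run or date.

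**Figure D1:**
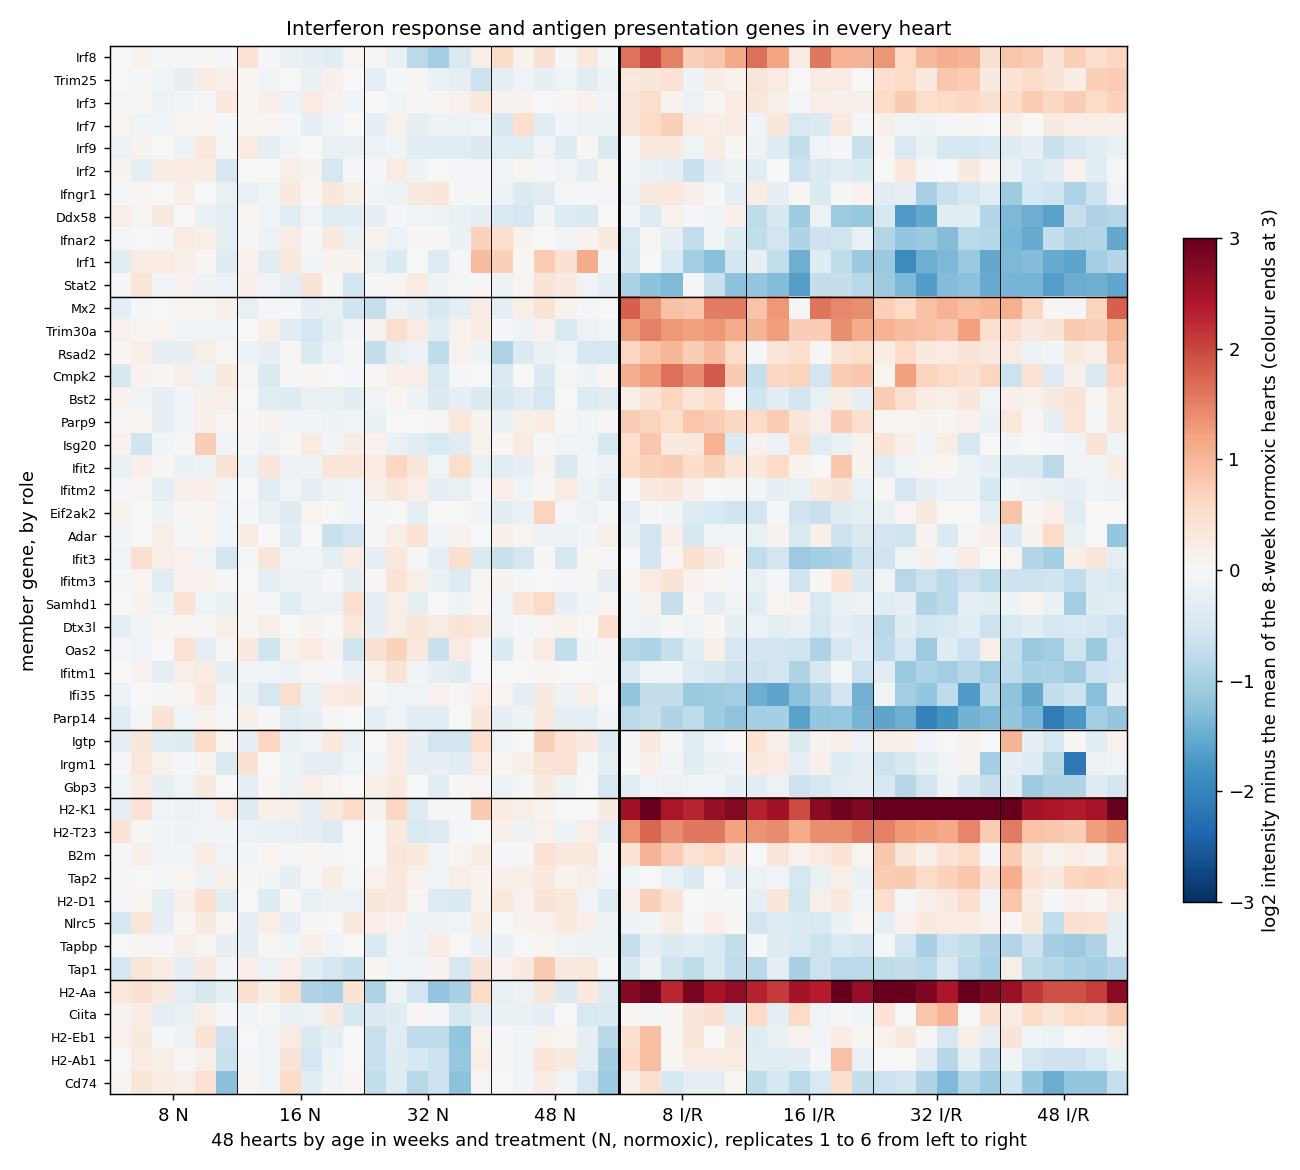
Log2 intensity of the 46 measured members in each of the 48 hearts, as the difference from the mean of the 6 normoxic hearts at 8 weeks (colour, from -3 to 3). Rows are genes by role and columns are hearts by age and treatment; the normoxic columns are pale, while H2-K1 and H2-Aa are high and Stat2 and Parp14 low in the I/R hearts of every age.

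The first question was whether these genes change with age in normoxic hearts. None of the 46 members was called in any normoxic comparison. Between 16 and 8 weeks the background was 0.0408% of genes called (0.0204% higher and 0.0204% lower). Without adjustment, 0 members and 559 of 9811 genes had p under 0.05. Between 32 and 8 weeks 1.58% of genes were called (0.795% higher and 0.785% lower), with 8 members and 1135 genes under 0.05 without adjustment. Between 48 and 8 weeks 1.65% of genes were called (0.907% higher and 0.744% lower), with 4 members and 1009 genes under 0.05 without adjustment. Between 48 and 32 weeks 0% of genes were called, with 5 members under 0.05 without adjustment. The F test across all 4 ages called 1.68% of genes and 0 members, and 6 of the 46 members were under 0.05 without adjustment. These last counts of 5 and 6 members are given without a count over all genes, so they are not read as a result. The shares called use adjusted p, so the counts at an unadjusted p are not comparable with them. The members' median log2 difference lay between -0.05 and 0.01 in these comparisons, and the median of all genes between -0.01 and 0.00. A count of 0 among 46 members is near these background shares.

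The member nearest to the threshold in normoxic hearts was H2-Eb1 at 32 weeks, and the other class II genes are given beside it. H2-Eb1, the beta chain of the I-E class II molecule, ran from 8.83 to 9.87 (median 9.50) at 8 weeks, from 9.05 to 9.71 (9.39) at 16 weeks, from 8.27 to 9.59 (8.74) at 32 weeks and from 8.63 to 9.55 (9.39) at 48 weeks. The 32-week hearts were the lowest as a group, and they overlapped with every other age. The difference between 32 and 8 weeks was -0.59 ± 0.18 (SE), with 5 of 6 hearts below the 8-week mean (adjusted p = 0.0744). Cd74, the invariant chain, differed by -0.62 ± 0.24 (adjusted p = 0.213), H2-Ab1, the I-A beta chain, by -0.51 ± 0.21 (0.269) and H2-Aa, the I-A alpha chain, by -0.54 ± 0.25 (0.381). Both probes of H2-Ab1 and of Cd74 were lower at 32 weeks, the second by -0.40 and -0.37. Ciita, the activator of the class II genes, the remaining class II member, differed by -0.26 ± 0.16 (0.572). Of the other members named by rank, Irf9 differed by -0.28 ± 0.12 between 32 and 8 weeks (adjusted p = 0.265).

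A single heart and the processing weigh on this result. Replicate 6 of the 8-week normoxic hearts lay lowest of its group for H2-Eb1 (8.83), H2-Ab1 (9.53) and Cd74 (9.15), while the other 5 hearts ran from 10.49 to 10.85 for Cd74. It was also the normoxic array farthest from its group over all genes. With that heart left out, a setting chosen after the data were seen, H2-Eb1 (-0.72, adjusted p = 0.0199) and Cd74 (-0.88, adjusted p = 0.0198) passed the threshold. With all hearts kept, H2-Eb1 also passed with median centring (-0.61, adjusted p = 0.0440) and both passed with array weights (-0.65, 0.00904 for H2-Eb1 and -0.75, 0.0194 for Cd74). Whether H2-Eb1 and Cd74 pass at 32 weeks thus depends on that heart and on the processing.

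The class II genes moved together from heart to heart. After each group's mean was subtracted, H2-Ab1 and H2-Eb1 had Pearson's r = 0.937 and Spearman's rho = 0.878 over the 24 normoxic hearts, and r = 0.905 without the 2 farthest hearts. H2-Eb1 and Cd74 had r = 0.92 and rho = 0.891 (0.901 without those 2), and H2-Ab1 and Cd74 r = 0.925 and rho = 0.912 (0.905). Each had permutation p = 1e-05, the smallest that 100000 permutations within groups can give, and adjusted p = 3e-05 (Pearson) and 3.6e-05 (Spearman) over 18 relations. The 3 pairs with H2-Aa had r from 0.472 to 0.601 in normoxic hearts. In the 24 I/R hearts they had r from 0.816 to 0.836, within the range of the other 3 pairs (0.765 to 0.946). Values of a pair come from the same array, so they also share whatever raises or lowers that array.

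Class II levels also moved with markers of other cells. H2-Eb1 deviations followed the mean of 12 measured macrophage and monocyte markers in normoxic hearts (r = 0.656, rho = 0.56, permutation p = 0.00322, adjusted p = 0.00414, r = 0.75 without the 2 farthest hearts) and in I/R hearts (r = 0.627, rho = 0.608, p = 0.00092, adjusted p = 0.00151, r = 0.549 without them). Against 12 cardiomyocyte markers the relation was negative in normoxic hearts (r = -0.725, rho = -0.603, permutation p = 0.00023, adjusted p = 0.000414, r = -0.60 without the 2 farthest) and r = -0.175 in I/R hearts (adjusted p = 0.47). Against 13 endothelial markers r was -0.257 and 0.225 (adjusted p = 0.332 and 0.409). The summed level of the macrophage markers ran from 2137 to 6822 (median 6030) in 8-week normoxic hearts and from 3203 to 7264 (median 4357) at 32 weeks, and its lowest value in any group was that of an 8-week normoxic heart. By the mean log2 level of these markers, replicate 6 of the 8-week normoxic hearts stood at 7.05, against 8.08 to 8.26 in the others. That heart was also the lowest of its group for H2-Eb1, H2-Ab1 and Cd74. Of the macrophage list 12 of 18 genes were measured and 10 were detected on every array, while Csf1r, Cd68 and Ptprc were not measured. Dendritic cell markers were measured for 4 of 8 genes, T and NK cell markers for 1 of 13 and B cell markers for 0 of 8. In such bulk tissue fewer cells of a type and less RNA per cell cannot be told apart, and the part of macrophage content in the class II levels was not tested further.

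**Figure D2:**
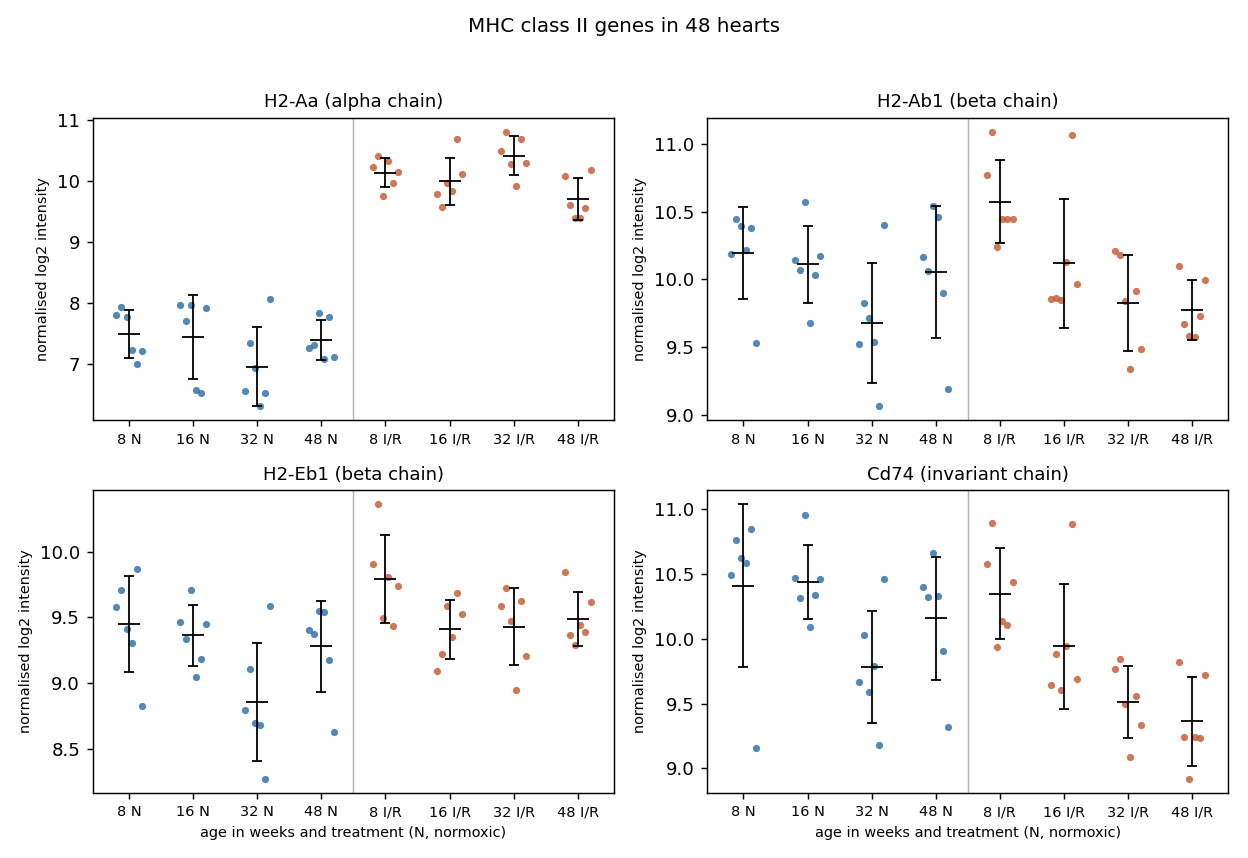
Log2 intensity (vertical axis) of 4 class II genes in each heart by age and treatment; points are hearts, and bars show the mean and SD of 6 hearts. H2-Aa is far higher in all I/R hearts, Cd74 is on average lowest in the 48-week I/R hearts, and the low 8-week normoxic point in H2-Ab1, H2-Eb1 and Cd74 is the same heart.

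The other members named by rank in normoxic hearts did not pass the threshold in the main fit either. Rsad2, the antiviral protein viperin, had medians of 8.92, 8.69, 8.63 and 8.39 at 8, 16, 32 and 48 weeks. It was lower in all 6 hearts at 48 weeks than the 8-week mean, by -0.45 ± 0.14 (adjusted p = 0.103), and the groups overlapped. With array weights Rsad2 passed the threshold (-0.45, adjusted p = 0.0302). Bst2, which tethers budding virus to the cell surface, differed by -0.34 ± 0.13 (adjusted p = 0.22). Irf1, a transcription factor induced by interferon-gamma, ran from 10.96 to 12.12 at 48 weeks against 10.63 to 11.25 at 8 weeks, a difference of 0.52 ± 0.21 (adjusted p = 0.312) that its second probe gave as 0.54. Irf8, a transcription factor of macrophages and dendritic cells, was 0.60 ± 0.20 higher at 48 than at 32 weeks (adjusted p = 0.431), and Ifit2, an interferon-induced RNA-binding protein, differed by -0.42 ± 0.15 (adjusted p = 0.548). The members with the smallest p between 16 and 8 weeks were Bst2 (-0.25), H2-T23 (-0.21) and Ifitm2 (-0.16), with adjusted p of at least 0.891.

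Ischaemia and reperfusion went with changes in both directions. Averaged over the 4 ages, 35 of the 46 members were called, 17 higher and 18 lower in I/R hearts, against a background of 78.9% of all genes called (34.6% higher and 44.4% lower). A count of 35 of 46 is near that background, and the median difference of the members (-0.05) was close to that of all genes (-0.07). After 45 min of reperfusion the members had not moved one way as a group. By role, 4 rose and 6 fell of 11 receptors, sensors and factors, 6 rose and 7 fell of 19 effectors, 0 rose and 2 fell of 3 GTPases, 4 rose and 2 fell of 8 class I genes, and 3 rose and 1 fell of 5 class II genes.

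The largest differences were those of H2-K1 and H2-Aa. H2-K1, a classical class I heavy chain, ran from 5.54 to 6.70 (median 6.01) in the 24 normoxic hearts and from 7.87 to 10.22 (median 8.63) in the 24 I/R hearts. The groups did not overlap, and the probe was detected on 20 of 24 normoxic and all I/R arrays. The annotation names 3 probes for H2-K1, but no second one was detected on enough arrays to be measured. The H2-K1 difference thus rests on this probe alone. H2-K1 rose 6.94-fold (2.80 ± 0.09, adjusted p = 4.13e-29), and the rise was 3.01-fold without background correction and 2.51-fold with the authors' values. H2-Aa ran from 6.31 to 8.06 (median 7.29) in normoxic and from 9.39 to 10.81 (median 10.10) in I/R hearts, again without overlap. It rose 6.72-fold (2.75 ± 0.12, adjusted p = 3.04e-24), or 3.54-fold with the authors' values.

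The other class II members differed by less. H2-Ab1 differed by 0.07 ± 0.10 (adjusted p = 0.568) and its second probe fell by 0.70. H2-Eb1 rose by 0.29 ± 0.09 (adjusted p = 0.00284). Cd74 fell by 0.41 (SE 0.12, adjusted p = 0.00187) and its second probe fell by 0.95. Ciita rose by 0.44 ± 0.08 (adjusted p = 2.06e-06), with 22 of 24 hearts above the normoxic mean. With median centring H2-Eb1 (0.15, adjusted p = 0.114) no longer passed. With RIN as a covariate, H2-Eb1 (0.23, adjusted p = 0.187) and Cd74 (-0.17, adjusted p = 0.478) no longer passed. Whether the H2-Aa and H2-K1 probes also bind a near-identical MHC transcript was not tested.

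Other class I genes moved by less and in both directions. H2-T23, the non-classical heavy chain Qa-1, ran from 7.27 to 8.10 (median 7.62) in normoxic and from 8.46 to 9.43 (median 9.09) in I/R hearts. These groups did not overlap. It rose 2.60-fold (1.38 ± 0.07, adjusted p = 2.77e-23), or 1.75-fold with the authors' values, and its second probe rose by 0.36. B2m, the light chain that all class I molecules share, rose by 0.30 ± 0.06 (adjusted p = 1.80e-05). Tapbp (tapasin), which loads peptide onto class I, fell by 0.53 (SE 0.06, adjusted p = 2.07e-10). That fall was -0.21 without background correction and -0.13 with the authors' values, and 19 of 24 I/R arrays detected the probe. Tap1, a subunit of the peptide transporter and the other class I gene called lower, was detected on 17 of 24 normoxic and 1 of 24 I/R arrays. At 8 weeks, where no I/R array detected it, it was at least 1.10-fold lower in I/R hearts, and at 16 and 32 weeks no fold could be bounded. Tap2, its partner, rose by 0.18 ± 0.05 (adjusted p = 0.00224), with 13 of 24 hearts above the normoxic mean, and did not pass with RIN as a covariate (0.19, adjusted p = 0.0699) or with median centring (0.04). H2-D1 (0.17 ± 0.08, adjusted p = 0.0596) and Nlrc5, the activator of class I genes (-0.06, 0.486), did not pass.

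Among transcription factors and sensors, Irf8 rose and the Stat2 and Irf1 probes fell. Irf8 ran from 6.42 to 8.01 (median 7.42) in normoxic and from 7.70 to 9.46 (median 8.44) in I/R hearts, and it rose 2.07-fold (1.05 ± 0.10, adjusted p = 5.41e-13), or 1.45-fold with the authors' values. Irf1 ran from 10.58 to 12.12 (median 11.08) in normoxic and from 9.09 to 11.01 (median 9.89) in I/R hearts. It fell by 1.16 (SE 0.11, adjusted p = 1.33e-13), and its second probe fell by 1.96 without overlap of the groups. Stat2, a partner of Irf9 in the factor that type I interferon activates, was detected on all 24 normoxic arrays and 1 I/R array. At 16, 32 and 48 weeks, where no I/R array detected it, it was at least 1.51-fold, 1.59-fold and 1.45-fold lower in I/R hearts, each a bound set by the dimmest detected probes. Ifnar2, a chain of the type I interferon receptor, fell by 0.84 (SE 0.07, adjusted p = 4.37e-14), against -0.36 without background correction and -0.25 with the authors' values. Ddx58 fell by 0.55 (SE 0.09, adjusted p = 5.20e-07), against -0.22 and -0.14. Neither was detected on every I/R array.

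The other factors moved by less. Trim25, a ubiquitin ligase that acts on RIG-I, rose by 0.47 ± 0.05 and Irf7, which amplifies type I interferon, by 0.20 ± 0.06 (adjusted p = 1.17e-10 and 0.00222). Irf3, the factor that viral sensing activates first, rose by 0.36 ± 0.04 on its brightest probe (adjusted p = 6.51e-10). Its second probe fell by 1.51 (SE 0.09), from a range of 7.71 to 8.16 in normoxic hearts to 5.35 to 7.16 in I/R hearts. These ranges did not overlap, so the direction for Irf3 depends on the probe.

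Antiviral effectors split into a group that rose and a group that fell. Mx2, an interferon-induced GTPase of the dynamin family, had the largest rise among effectors and is named here after its values were seen, since its probe was not detected on all arrays of either treatment. It reached 6.29 (median 5.83) in normoxic hearts, where 16 of 24 arrays detected it, and ran from 5.85 to 7.68 (median 6.84) in I/R hearts, where 22 of 24 did. The groups overlapped, and Mx2 rose 2.15-fold (1.10 ± 0.11, adjusted p = 1.08e-12). Trim30a, an interferon-induced Trim protein, ran from 6.55 to 7.57 (median 7.02) in normoxic and from 7.35 to 8.59 (median 8.07) in I/R hearts. It rose 2.00-fold (1.00 ± 0.06, adjusted p = 1.29e-18), or 1.36-fold with the authors' values. Rsad2 rose 1.57-fold (0.65 ± 0.07, adjusted p = 2.13e-11), from a median of 8.67 to 9.23. Bst2 rose by 0.35 ± 0.06 (adjusted p = 2.26e-06) and Parp9, which binds ADP-ribose, by 0.34 ± 0.05 (4.61e-08). Cmpk2, a nucleotide kinase encoded beside Rsad2, rose by 0.61 ± 0.11 and was detected on 15 of 24 normoxic and 17 of 24 I/R arrays.

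The effectors that fell did so on both probes where there were 2. Parp14, an ADP-ribosyltransferase, ran from 8.01 to 8.77 (median 8.25) in normoxic and from 6.26 to 7.65 (median 7.16) in I/R hearts, without overlap. It fell by 1.21 (SE 0.07, adjusted p = 2.50e-19), against -0.64 with the authors' values, and its second probe, detected on none of the I/R arrays, was at least 1.20-fold lower. Ifi35, an interferon-induced leucine zipper protein, fell by 1.03 (SE 0.10, adjusted p = 2.42e-13), against -0.34 with the authors' values. Its probe was detected on 17 of 24 I/R arrays. Ifitm1, a membrane protein that hinders viral entry, fell by 0.62 (SE 0.06), with its second probe at -0.79, and Dtx3l, a ubiquitin ligase that pairs with Parp9, fell by 0.46 (SE 0.05). The second Dtx3l probe was not detected on any I/R array at 8 and 16 weeks and was at least 1.30-fold and 1.26-fold lower there. Whether probes of Ifitm1, Ifitm2 and Ifitm3 tell these close relatives apart was not tested. The GTPases Gbp3 (-0.43) and Irgm1 (-0.30) fell too, and Igtp differed by 0.00.

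Members with and without a match of the response element's letters were both split between risers and fallers. The shares were not tested against each other. Of 15 measured members with a matched element, 5 rose (Rsad2, Bst2, Trim30a, B2m and H2-T23), 6 fell and 4 were not called, against 34.6% of all genes called higher and 44.4% called lower. The 6 include Stat2, detected on 1 of 24 I/R arrays. Of 22 measured members with a window and no match, 8 rose, 9 fell and 5 were not called. The remaining 9 have no window in the table.

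**Figure D3:**
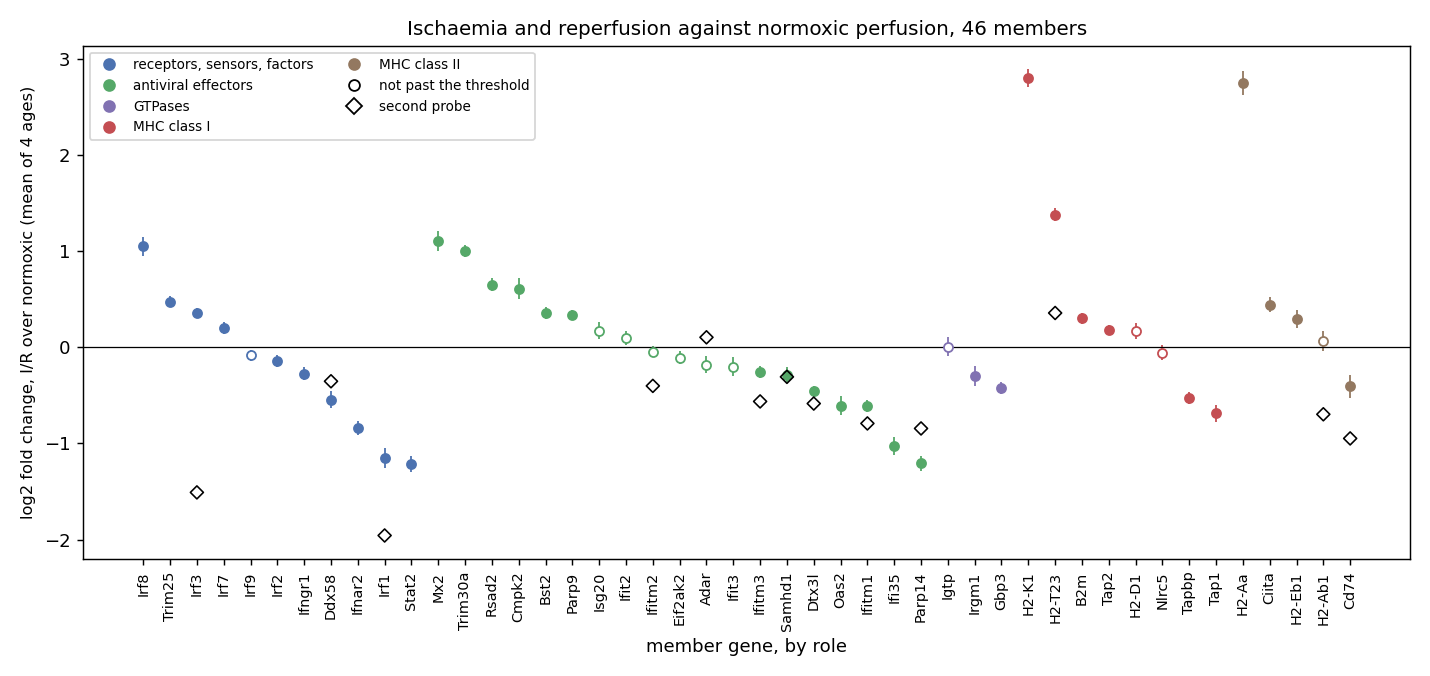
Log2 fold change of I/R over normoxic hearts, averaged over 4 ages (vertical axis), for the 46 members by role; filled circles passed the threshold, bars are SE, and diamonds are the second probe. H2-K1 and H2-Aa stand near 2.8, most members lie between -1 and 1, and the Irf3 diamond lies on the other side of 0 from its circle.

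Markers of other cells were called for I/R too, in both directions. The background was 34.6% of all genes called higher and 44.4% called lower. Of 12 measured macrophage and monocyte markers 5 rose and 4 fell, with Tyrobp, a myeloid signalling adaptor, at 1.66, the macrophage surface gene Adgre1 at 1.44, Lyve1 at 1.12 and Cd14 at 0.65. The 4 that fell were Lyz2 (-0.70), C1qb (-0.44), C1qc (-0.42) and Fcgr3 (-0.41), named after their values were seen. Their summed level had medians from 4217 to 4953 in I/R groups other than the 48-week one (3954), against 4357 to 6030 in normoxic groups. Of 13 endothelial markers 1, Vwf, rose (0.47) and 10 fell, with Cldn5, a tight junction gene, at -2.02. The summed endothelial level had group medians from 21880 to 24692 in normoxic and from 13811 to 17955 in I/R hearts. Of 9 fibroblast markers 6 rose and 2 fell, with a median of 0.39. The collagen genes Col3a1 and Col1a2 were at 2.18 and 1.35. The 2 that fell were Col1a1, also a collagen gene (-0.35), and Ddr2 (-0.32). Vwf, Col1a1 and Ddr2 are named after their values were seen. Of 4 dendritic cell markers Cd209a rose (0.57) and Zbtb46, a factor of classical dendritic cells, fell (-1.03). Of 12 cardiomyocyte markers 6 rose and 5 fell. The part of these shifts in the members' differences was not tested.

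Other genes of the same pathways, taken from lists that left out the members, were likewise mixed. The background was again 34.6% of all genes called higher and 44.4% called lower. Of 37 measured other interferon pathway genes 13 rose and 12 fell, and those with the smallest p were Jak1, a kinase of the interferon receptors (2.42), Nampt (1.85), Ifi27 (1.34) and Mavs, the mitochondrial adaptor below RIG-I (-1.01). Of 18 measured other antigen presentation genes 7 rose and 8 fell, and those with the smallest p were Ctss, the protease that trims the invariant chain (1.94), H2-M3 (-1.34), the immunoproteasome subunit Psmb9 (0.73) and the class II factor Rfx5 (-0.34). In normoxic hearts at 48 against 8 weeks, Ifngr2, an interferon-gamma receptor chain, and Uba7, the activating enzyme for Isg15, were the only called genes of both lists, at -0.35 and -0.50 (adjusted p = 0.0163 and 0.0214). In that comparison 1.65% of all genes were called.

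The I/R difference was next compared between ages. At 8 weeks 22 members were called, 14 higher and 8 lower, with 52.9% of genes called (22.3% higher and 30.7% lower). At 16 weeks 22 were called, 8 higher and 14 lower (54.3% of genes, 22.3% higher and 32% lower), at 32 weeks 31, 14 higher and 17 lower (65.7%, of which 27.7% higher and 38% lower), and at 48 weeks 29, 12 higher and 17 lower (63.4%, of which 29.2% higher and 34.2% lower). These 4 counts lay near their background. An F test asked whether the I/R difference varied with age, and it called 19 of 46 members against 29.3% of genes. Between 48 and 8 weeks the I/R difference itself changed in 16 members, 4 towards higher and 12 towards lower values, against 21.4% of genes (10.3% higher and 11.2% lower). The median of that change was -0.34 over the members and -0.01 over all genes.

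Class I transport gave the smallest p. Tap2 ran from 8.38 to 8.71 in normoxic and from 8.15 to 8.57 in I/R hearts at 8 weeks, and from 8.46 to 8.88 and from 8.95 to 9.36 at 32 weeks. The I/R hearts overlapped with the normoxic ones at 8 weeks and lay above them without overlap at 32 weeks. The I/R difference was -0.17, -0.15, 0.54 and 0.48 at 8, 16, 32 and 48 weeks (SE 0.10 each, adjusted p of the F test = 3.52e-05). H2-K1 was higher in I/R hearts at every age, with differences of 2.61, 2.43, 3.55 and 2.59 (SE 0.19, adjusted p = 0.00311), so that the 32-week hearts stood above the rest.

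Among receptors and factors, Ifnar2 fell further with age. Its I/R hearts ran from 6.15 to 6.97 at 8 weeks and from 5.35 to 6.17 at 48 weeks, where 1 of 6 arrays detected it, while normoxic hearts stayed between 6.59 and 7.58. The I/R difference was -0.31, -0.63, -1.10 and -1.30 at the 4 ages (SE 0.15, adjusted p = 0.000717), and the last 2 are against hearts where 3 and 1 of 6 arrays detected the probe. The change between 48 and 8 weeks was -0.99, against -0.41 without background correction and -0.28 with the authors' values, and it was called under each. Irf1 had differences of -0.63, -0.82, -1.38 and -1.79 (SE 0.21), a change of -1.17 ± 0.30 between 48 and 8 weeks (adjusted p = 0.00358). Its second probe gave a change of -0.41 that was not called. Trim25 had differences of 0.22, 0.20, 0.76 and 0.72 (SE 0.11, adjusted p = 0.00195). Irf3 changed by 0.43 on its brightest probe and by -0.67 on its second, with opposite signs.

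The I/R rise of Parp9 and Cmpk2 was largest at 8 weeks and smaller at 48 weeks. Parp9 ran from 8.56 to 8.86 in I/R hearts at 8 weeks, above all normoxic hearts of that age (7.79 to 8.19), and from 7.78 to 8.40 at 48 weeks, overlapping with the normoxic ones (7.83 to 8.25). Its I/R difference was 0.69, 0.56, 0.00 and 0.10 (SE 0.10, adjusted p = 0.00014). Cmpk2 had differences of 1.34, 0.33, 0.63 and 0.13 (SE 0.22), and the change between 48 and 8 weeks was -1.22 ± 0.31 (adjusted p = 0.00373), against -0.54 without background correction and -0.39 with the authors' values. Its probe was detected on 6 of 6 I/R arrays at 8 weeks and on 2 of 6 at 48 weeks. Ifitm3 had differences of 0.13, 0.02, -0.65 and -0.52 (SE 0.12, adjusted p = 0.000541), and Dtx3l of -0.10, -0.41, -0.74 and -0.58 (SE 0.10, adjusted p = 0.00204). The second Ifitm3 probe did not pass, with a change of -0.26 between 48 and 8 weeks, and the second Dtx3l probe was too dim in I/R hearts to measure one.

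**Figure D4:**
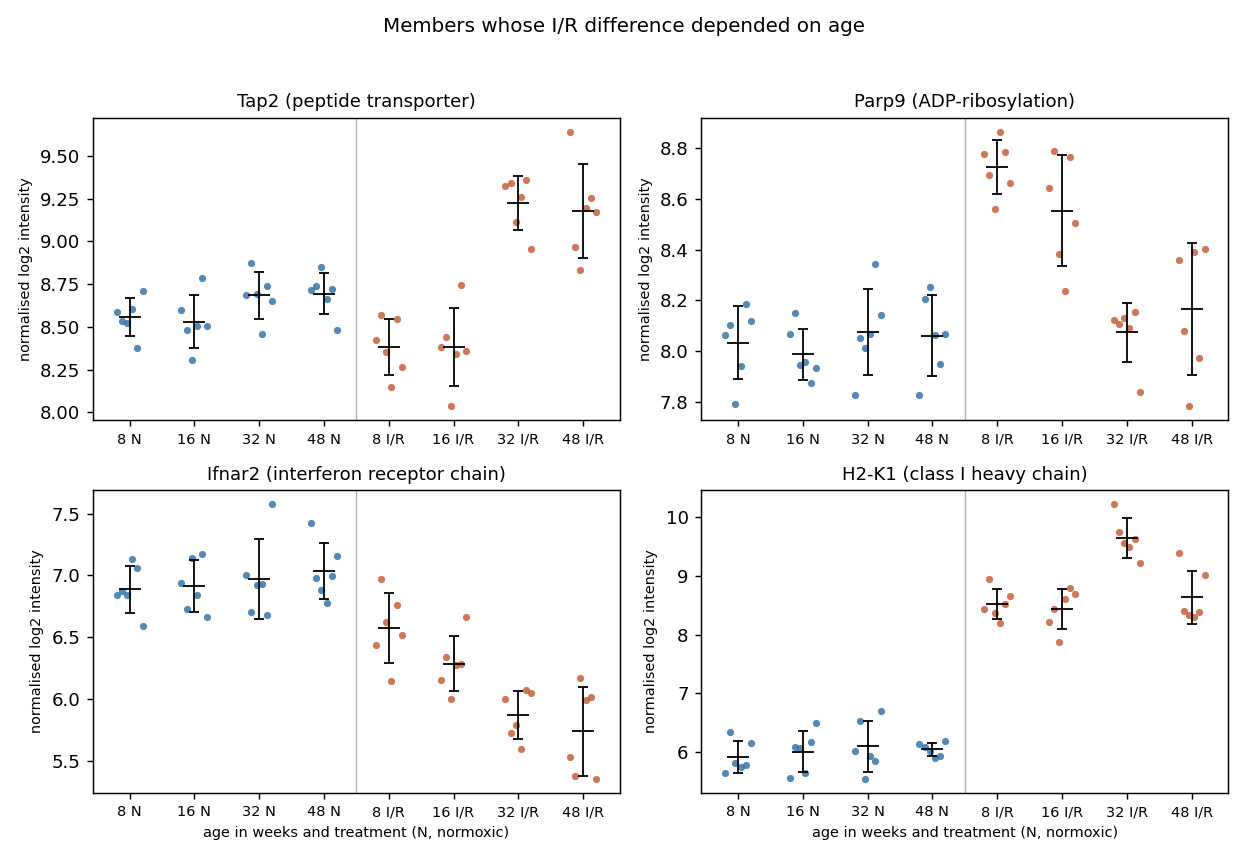
Log2 intensity (vertical axis) of Tap2, Parp9, Ifnar2 and H2-K1 in each heart by age and treatment; points are hearts, and bars show the mean and SD of 6 hearts. The normoxic hearts overlap across ages, while I/R hearts of 32 and 48 weeks are on average higher than those of 8 and 16 weeks for Tap2 and lower for Parp9 and Ifnar2.

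I/R hearts of 48 and 8 weeks were also compared directly, a comparison that shares its I/R hearts with the one above. Here 29 of 46 members were called, 5 higher and 24 lower at 48 weeks, against 39.3% of genes called (18.7% higher and 20.7% lower). The median difference was -0.38 over the members and -0.01 over all genes. The F test across the 4 ages of I/R hearts called 33 members, against 52.7% of genes. By role, 7 of 11 receptors, sensors and factors were lower, 11 of 19 effectors, 2 of 3 GTPases, 2 of 8 class I and 2 of 5 class II genes. The 5 higher members were Tap2, Trim25, Irf3 by its brightest probe, Ciita (0.41) and Eif2ak2, the RNA-activated kinase PKR (0.43), the last pair named after their values were seen.

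Cmpk2, Ddx58 and Ifit2 were among the members that fell. Cmpk2 ran from 6.54 to 7.61 (median 7.11) at 8 weeks and from 5.11 to 6.39 (median 5.65) at 48 weeks, without overlap, and fell by 1.39 (SE 0.22, adjusted p = 2.13e-06). That fall was -0.60 without background correction and -0.44 with the authors' values, and it was called under both. Ddx58 ran from 6.42 to 6.95 at 8 weeks, was detected on 0 of 6 arrays at 48 weeks and was at least 1.68-fold lower there (adjusted p = 3.52e-06). Ifit2 had a median of 8.88 and a lowest value of 8.62 at 8 weeks and from 7.48 to 8.48 at 48 weeks, and fell by 0.86 (SE 0.15, adjusted p = 1.17e-05). All 6 hearts at 48 weeks lay below all 6 at 8 weeks for each of these 3 genes.

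Membrane and signalling members fell too. Ifitm3 fell by 0.70 (SE 0.12, adjusted p = 1.34e-05), with its second probe at -0.41, and Trim30a by 0.69 (SE 0.13, adjusted p = 3.05e-05). Ifnar2 fell by 0.84 (SE 0.15, adjusted p = 1.09e-05), against -0.22 with the authors' values, and Parp9 by 0.56 (SE 0.10, adjusted p = 1.42e-05). In the other direction, Tap2 ran from 8.15 to 8.57 at 8 weeks and from 8.83 to 9.64 at 48 weeks, and rose by 0.79 ± 0.10 (adjusted p = 5.32e-08). H2-K1, at 8.52 at 8 weeks and 8.64 at 48 weeks, did not differ past the threshold between these ages (0.12 ± 0.19, adjusted p = 0.656), and it was among the members with the smallest p in the F test because of the 32-week hearts (mean 9.64). Irf3 differed by 0.47 on its brightest probe and by -0.55 on its second. Of class II genes, Cd74 fell by 0.99 (SE 0.24, adjusted p = 0.000785) without overlap of the groups, with its second probe at -1.09, and H2-Ab1 by 0.80 (SE 0.21, adjusted p = 0.00198), with its second probe at -0.31.

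**Figure D5:**
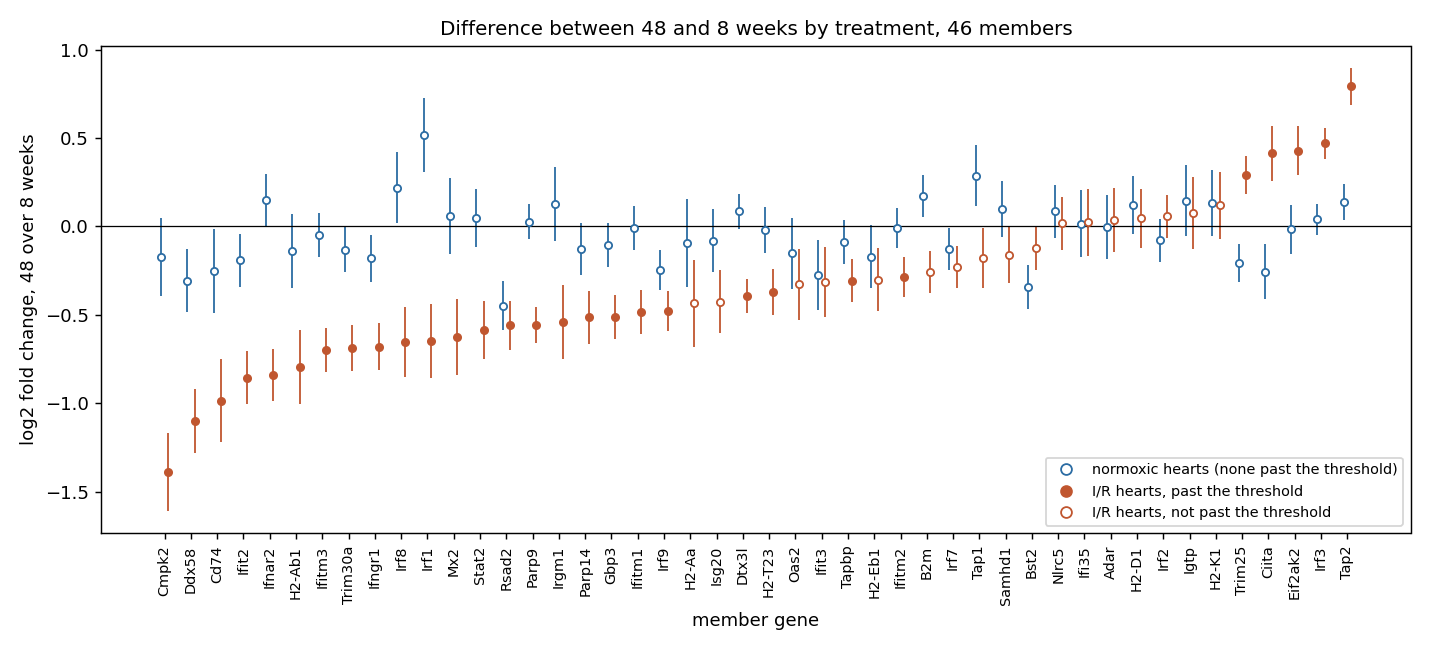
Log2 fold change of 48 over 8 weeks (vertical axis) in normoxic hearts (blue) and in I/R hearts (orange) for each of the 46 members, ordered by the I/R value; filled points passed the threshold and bars are SE. The orange points run from -1.39 for Cmpk2 to 0.79 for Tap2, with 24 called below 0, whereas no blue point passed.

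RNA quality and some cell markers differed between these ages too. RIN was 8.08 ± 0.15 in 8-week and 7.60 ± 0.11 in 48-week I/R samples (SD, n = 6 each), the number of members detected per array fell from 42 to 44 to 36 to 39, and probes detected from 13099 to 13854 to 11072 to 12396. With RIN as a covariate 26 members were called, 3 higher and 23 lower, against 3172 of 9811 genes (15.1% higher and 17.2% lower). For the cell markers the background was 18.7% of all genes called higher and 20.7% called lower. Of 13 endothelial markers 2 were higher at 48 weeks, Vwf (0.55) and Pecam1 (0.37), named after their values were seen. Of the same 13 markers 6 were lower, among them Cdh5, the junctional cadherin (-1.62), and Tie1 (-1.25). The summed endothelial level ran from 15546 to 22108 at 8 weeks and from 14952 to 17279 at 48 weeks. Of 12 macrophage markers 0 were higher and 2, the complement genes C1qb and C1qc, were lower (-0.60 each), and their summed level ran from 4311 to 6251 and from 3136 to 6019. Of 12 cardiomyocyte markers 1, Nppa, was lower. Of 9 fibroblast markers 3 were lower, among them the collagen genes Col1a1 (-1.64) and Col3a1 (-1.78). The part of cell content in the members' fall was not tested.

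Other genes of the pathways were called in both directions, against 18.7% of all genes called higher and 20.7% called lower. Of 37 other interferon pathway genes 4 were higher and 11 lower in I/R hearts at 48 against 8 weeks, with a median of -0.17. Those with the smallest p were Lgals3bp (-1.30), Ly6e (-0.85), Jak1 (-1.02) and Daxx (-0.57). The 4 called higher were Ifi205 (1.31), Myd88 (0.85), Socs3 (0.62) and Socs1 (0.35), named after their values were seen. Of 18 other antigen presentation genes 3 were higher and 4 lower, with a median of -0.03. Those with the smallest p were H2-Ob, a chain of the class II-like molecule H2-O (0.98), and Psme2, a proteasome activator subunit (0.45), both higher, and the protease Lgmn (-0.42) and the chaperone Pdia3 (-0.39), both lower. Whether the share differs between these lists and the members was not tested.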

How the data were processed

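Illumina bead arrays measured left ventricular RNA of 48 hearts, 1 array per heart. The deposited table gives each array's summarised intensity for 46624 named probes, with no scaling between arrays. Its detection columns, called p-values in the file headers as deposited, hold a fraction from 0 to 1 that rises with signal (rank correlation at least 0.995), so the detection p was taken as 1 minus that score. The authors' processed log2 values, deposited per sample, were used as an alternative; the submitters' processing notes name lumi, and version and transform are not given in the sources used here.
Here intensities were corrected by normexp on detection p (offset 16), quantile-normalized and logged with limma 3.58.1 in R 4.3.3. Probes detected on at least 6 arrays with 1 gene symbol were kept (17624 probes, 9811 genes), with the brightest probe per gene. All 48 arrays entered 1 fit of 8 group means (lmFit, eBayes, two-sided, Benjamini-Hochberg over 9811 genes, threshold 0.05). Second-probe differences come from the same model over 2813 genes with a second detected probe. In the second-probe alternative, those probes replaced the brightest ones and the fit covered all 9811 genes. Correlations used 100000 permutations within groups. The code was tested on simulated data.
Members and lists were chosen with earlier results of these data known. Named members are those past the threshold, at most 8 by p per age comparison, the 3 with the smallest p where fewer than 3 passed, and, for the mean I/R difference, the 4 largest changes each way per role among members detected on all arrays of a treatment, which leaves out Mx2 and Oas2. A clause on the brightest and dimmest members was dropped, since probes differ in brightness. The alternatives were median centring, no background correction, the authors' values, array weights, RIN as a covariate, a replicate block and second probes, among others; 2 that leave out an array were added after seeing the data. The number of arrays limits the precision. Replicate numbers did not pair hearts: over 168 pairs of same-numbered hearts, the correlation of deviations ran from -0.213 to 0.206.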

Additional observations from a re-analysis of the deposited data

Results flagged for a closer look

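Of 248 groups of 6 hearts tested over 31 named members, 15 held a heart far from the other 5 by Dixon's test, and chance alone flags about 1 in 20. At 8 and 16 weeks these were H2-T23 in 8-week normoxic replicate 1 (8.10, above the others), Cd74 in 8-week normoxic replicate 6 (9.15, below) and 16-week I/R replicate 5 (10.89, above), Cmpk2 in 16-week normoxic replicate 2 (5.35, below) and Irgm1 in 16-week normoxic replicate 1 (8.54, above). In normoxic hearts at 32 weeks, replicate 6 was high for Irf1 (11.93) and Ifnar2 (7.58), replicate 4 low for Cmpk2 (5.29) and replicate 1 low for Dtx3l (8.46). In I/R hearts at 32 weeks, replicate 1 was high for Ifitm3 (11.94) and Ifitm1 (12.01) and replicate 6 low for Parp9 (7.84). At 48 weeks, normoxic replicate 6 was high for Dtx3l (9.16), I/R replicate 2 low for Irf7 (6.81) and I/R replicate 4 low for Irgm1 (5.93).

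The I/R difference varied between ages, by the F test of limma over all genes, for 8 named members. The adjusted p was 3.52e-05 for Tap2, 0.00014 for Parp9, 0.000541 for Ifitm3, 0.000717 for Ifnar2, 0.00174 for Irf3, 0.00195 for Trim25, 0.00204 for Dtx3l and 0.00311 for H2-K1. For Ifitm3 the second probe did not pass (0.437), and that of Dtx3l was detected on 2 of 24 I/R arrays.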

How the results depend on the processing

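Of the members' counts 162 of 168 stayed within 1.5 times under the alternatives, and of their medians 129 of 132 moved by less than the spread. In normoxic hearts the count of 0 at 32 against 8 weeks became 1 with median centring, 3 with array weights and, over the arrays left out, 0 to 2, the 2 being reached without 8-week normoxic replicate 6. Array weights gave 1 at 48 against 8 weeks and 1 in the F test over ages; they also raised the calls over all genes to 408, 358 and 437, from 155, 162 and 165. For the I/R difference at 48 minus 8 weeks, second probes gave 9 called members against 16, and the median of -0.34 became -0.20 without background correction and -0.16 with the authors' values. In I/R hearts of 48 against 8 weeks the median of -0.38 became -0.21 with the authors' values. The cause was not tested. Second probes reversed Irf3 for the mean I/R difference (-1.51) and for its change between 48 and 8 weeks (-0.67), and turned the sign of Dtx3l for that change (0.080), on a probe that 0 and 1 of 6 I/R arrays detected at 8 and 48 weeks, too dim to give a direction. With the replicate number as a block, the counts were 0 in each normoxic comparison, 35 for the mean I/R difference, 15 for its change and 28 in I/R hearts of 48 against 8 weeks, and no call on a named member changed. Median centring moved the median of all genes from -0.09 to 0.02 for I/R at 32 weeks and from -0.04 to 0.07 at 48 weeks. Without background correction or with the authors' values many differences shrank, as given beside some of them. Signal near background limits Stat2, Tap1, Oas2, Ddx58, Ifnar2, Cmpk2, Ifi35 and Tapbp in I/R hearts.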
